A study of Rattus norvegicus with 24 samples.

Results

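The 4 rat Ensembl gene IDs followed here were ENSRNOG00000012864, ENSRNOG00000019434, ENSRNOG00000025164 and ENSRNOG00000004006, in an experiment that switched on IRE1α in INS1 cells. INS1 is a line of insulin-secreting rat tumour cells that stands in for beta cells in culture. They were chosen by their RNA counts: all 4 belong to the 5 IDs that were called higher in induced than in uninduced cells at 4 h, out of 26689 IDs in the count table. The deposited table gives IDs without gene names and none of the 4 matched the gene table used here, so they carry no gene name, role or sequence below. Whether the IRE1α gene itself is among the 4 is therefore not known. The cells hold a mouse IRE1α transgene under doxycycline control. Uninduced cells received vehicle and no doxycycline, and induced cells received doxycycline with vehicle, PAIR1 or KIRA9, each at 4 h and at 24 h. This makes 8 groups of 3 libraries, of poly(A)-selected RNA. No dose of a compound is in the labels, and no uninduced cells received a compound. Doxycycline itself and the transgene cannot be told apart, since the uninduced cells, which carry the transgene, received no doxycycline to induce it.

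IRE1α sits in the membrane of the endoplasmic reticulum and senses unfolded proteins there. When molecules of it cluster, the kinase domain phosphorylates its neighbours and the RNase domain becomes active. The RNase cuts an intron out of Xbp1 mRNA, after which the mRNA codes for the transcription factor XBP1s, an inducer of chaperones and of the machinery for protein folding, secretion and degradation. Under stronger activation the RNase also degrades other mRNAs at the endoplasmic reticulum. Beta cells make insulin in large amounts and depend on this pathway. KIRA compounds bind the kinase domain and attenuate the RNase, and the series title describes the PAIRs as partial antagonists that act at the ATP site.

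Levels are given as CPM, counts per 1 M counts after TMM scaling. Library totals ran from 12.6 to 23.8 M counts. The counts of ENSRNOG00000012864 ran from 1592 to 22583 per library, those of ENSRNOG00000025164 from 1017 to 7147, those of ENSRNOG00000004006 from 454 to 2393 and those of ENSRNOG00000019434 from 73 to 251. Counting error alone was thus 11.7% of the value (SD) at the lowest count of ENSRNOG00000019434, against 4.69%, 3.14% and 2.51% at the lowest counts of ENSRNOG00000004006, ENSRNOG00000025164 and ENSRNOG00000012864, and this covers counting error only, since reads copied by PCR are not independent molecules. A set of 6 libraries, spread over the uninduced, induced and PAIR1 groups, stood apart by 41 other IDs that took 0.667 to 0.744% of their counts and 0.0705 to 0.0853% in the other 18. These IDs were picked as those higher, relative to total counts, in each of the 6 than in any of the 18. The direction of the gap was thus fixed by the way they were picked. Of the 4 genes, 0 belong to these IDs, and a call that is lost without the 6 libraries is named below. For the 6 induced vehicle libraries the time characteristic gives the opposite time to the title, the column name and the description. Titles were followed. In bulk RNA, a change in the number of cells that express a gene and a change in RNA per cell cannot be told apart.

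The values that chose the genes are described here without a test, because the choice fixes their direction. ENSRNOG00000012864 stood far above the others in the size of its difference at 4 h. It was at 115, 116 and 108 CPM in the 3 uninduced libraries and at 812, 798 and 745 CPM in the 3 induced ones, a log2 difference of 2.79, or 6.93-fold. The other 3 differed by much less. ENSRNOG00000025164 was at 92.1, 88.7 and 90.3 CPM without and at 119, 115 and 114 CPM with induction, a log2 difference of 0.36. ENSRNOG00000004006 was at 40.6, 35.6 and 37.3 CPM without and at 44.9, 49.6 and 48.4 CPM with induction, a log2 difference of 0.33. ENSRNOG00000019434, a low-count gene, was at 5.43, 4.90 and 6.66 CPM without and at 7.71, 8.42 and 8.19 CPM with induction, a log2 difference of 0.52. In all 4 genes every induced library lay above every uninduced one. Of 13760 IDs tested, 0.0363% were called higher at 4 h, and nothing is read from the share, as this contrast made the choice. At the edge of the choice, ENSRNOG00000019434 was the last of the called IDs. The first ID outside, not called, went from a mean of 7.15 to 10.2 CPM with a log2 difference of 0.52, and the remaining called ID, which is not among the 4, went from 0.549 to 1.36 CPM with a log2 difference of 1.28.

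**Figure D1:**
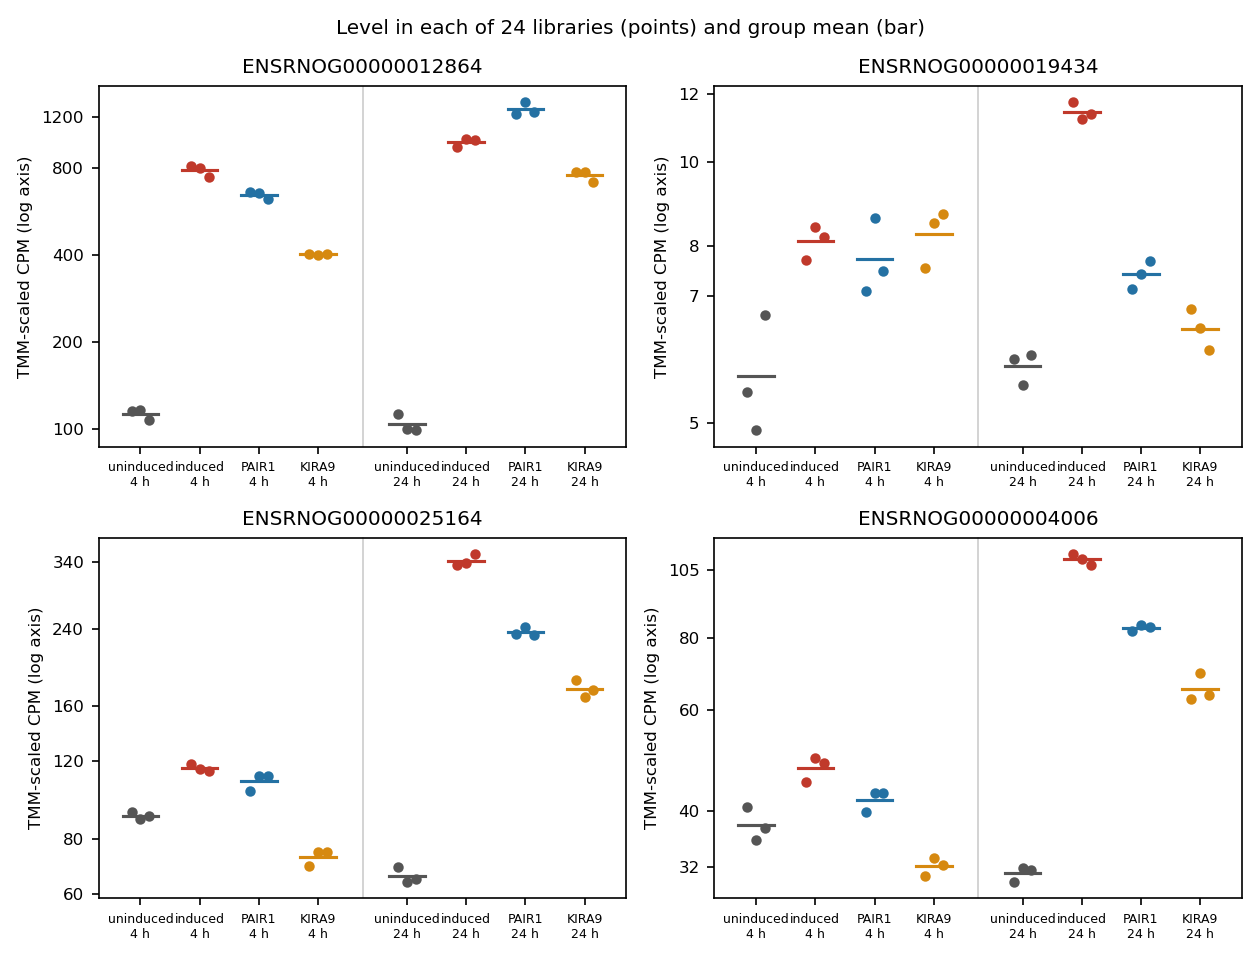
Level of each of the 4 genes in TMM-scaled CPM on a log axis (vertical) in the 8 groups (horizontal), with a point for each of the 3 libraries of a group and a bar at their mean. ENSRNOG00000012864 peaked with PAIR1 at 24 h (1277 CPM), the other 3 genes peaked in induced vehicle cells at 24 h, and KIRA9 at 4 h lay below uninduced cells for ENSRNOG00000025164 and ENSRNOG00000004006.

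The first comparison outside the choice asked whether the 4 genes were also higher after 24 h of induction, in libraries outside the 4 h contrast. The genes were chosen with earlier results of these data known, so full independence from the choice is not certain. The estimate of the spread is shared over all 24 libraries, those of 4 h included. All 4 rose, against 29.8% of all IDs that were called higher in this contrast. The median log2 change of the 4 was 2.09, and that of all 13760 IDs was 0.0045. ENSRNOG00000012864 was at 113, 100.1 and 99.0 CPM in uninduced and at 945, 1011 and 999 CPM in induced libraries, a log2 change of 3.24 ± 0.052 (SE) or 9.47-fold (adjusted p = 4.3e-23). Adjusted p-values here and below come from edgeR's quasi-likelihood test. ENSRNOG00000025164 was at 68.9, 63.9 and 64.8 CPM without and at 334, 338 and 355 CPM with induction, a log2 change of 2.38 ± 0.042 or 5.19-fold (adjusted p = 2.7e-22). ENSRNOG00000004006 was at 30.2, 31.9 and 31.6 CPM without and at 112, 109 and 107 CPM with induction, a log2 change of 1.81 ± 0.053 or 3.51-fold (adjusted p = 1.8e-18). ENSRNOG00000019434 was at 5.92, 5.53 and 5.99 CPM without and at 11.7, 11.2 and 11.4 CPM with induction, a log2 change of 0.98 ± 0.11 or 1.97-fold (adjusted p = 3.5e-08). No induced library overlapped an uninduced one in any of the 4. The share of all IDs without such overlap was not counted, and 8503 of the 13760 IDs were called in either direction, so nothing is read from this separation. With the times of the induced libraries taken from the time characteristic, the log2 differences were 2.92, 0.82, 0.61 and 0.48 in this order. Here and below these are values without a test, since the induced libraries then used for 24 h are those that chose the genes.

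The 4 genes built up differently between 4 h and 24 h, which is given as values because the 4 h libraries made the choice. The induction difference of ENSRNOG00000012864 was already large at 4 h, at 2.79 against 3.24 on the log2 scale at 24 h, and grew by 0.45. Those of ENSRNOG00000025164 and ENSRNOG00000004006 were small at 4 h and grew by 2.01 and 1.48 on the log2 scale. That of ENSRNOG00000019434 grew by 0.46, about as much as that of ENSRNOG00000012864, from a smaller difference of 0.52 at 4 h. With the times of the induced libraries taken from the time characteristic, all 4 turned, to -0.20, -1.10, -0.92 and -0.54 in this order. The uninduced cells took part in this: between 4 h and 24 h without induction, ENSRNOG00000025164 went from a mean of 90.4 to 65.9 CPM and ENSRNOG00000004006 from 37.9 to 31.2 CPM, with no overlap of libraries, a log2 difference of -0.45 and -0.28. The uninduced libraries of the other 2 genes overlapped between the times.

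ENSRNOG00000012864 lay below induced vehicle with PAIR1 at 4 h and above it at 24 h, and with KIRA9 below it at both times. The change with time was not tested, since the induced libraries of 4 h took part in choosing the gene for a high level there. At 4 h its level was 663, 656 and 623 CPM with PAIR1 and 403, 402 and 405 CPM with KIRA9, and every one of these lay below the induced vehicle libraries and above the uninduced ones. The difference from induced vehicle was -0.28 on the log2 scale with PAIR1 and -0.96 with KIRA9. At 24 h it was 1232, 1348 and 1251 CPM with PAIR1, above all induced vehicle libraries, and 775, 775 and 717 CPM with KIRA9, below them. PAIR1 raised it over induced vehicle by a log2 change of 0.37 ± 0.047 (adjusted p = 4.6e-07). KIRA9 lowered it, with a log2 change of -0.38 ± 0.047 (adjusted p = 2.5e-07). With the times of the induced libraries taken from the time characteristic, the PAIR1 difference was 0.70 and the KIRA9 difference was -0.055. Against uninduced cells at 24 h it was higher by 3.62 ± 0.053 with PAIR1 (adjusted p = 1.2e-22) and by 2.86 ± 0.051 with KIRA9 (adjusted p = 9.5e-21). Of the 4102 IDs that induction raised at 24 h, PAIR1 left 70 above the induced vehicle level by the test, and KIRA9 left 3 of the 70 below it by the test, ENSRNOG00000012864 among them; both compounds are compared with the same induced libraries here, and the count was made after the values had been seen. From the highest to the lowest mean the groups ran PAIR1 at 24 h, induced at 24 h, induced at 4 h, KIRA9 at 24 h, PAIR1 at 4 h, KIRA9 at 4 h, uninduced at 4 h and uninduced at 24 h. The libraries of induced cells at 4 h and KIRA9 at 24 h overlapped, as did those of the uninduced groups. The highest and the lowest group mean differed 12.3-fold.

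ENSRNOG00000025164 and ENSRNOG00000004006 followed the treatments together. At 4 h ENSRNOG00000025164 was at 103, 111 and 111 CPM with PAIR1 and at 69.6, 74.7 and 74.7 CPM with KIRA9. ENSRNOG00000004006 was at 39.9, 42.9 and 43.0 CPM with PAIR1 and at 30.9, 33.1 and 32.3 CPM with KIRA9. For both genes each of the KIRA9 libraries thus lay below each uninduced library of the same time, by a log2 difference of -0.31 and -0.24. With PAIR1 at 4 h, ENSRNOG00000025164 lay between the uninduced and the induced libraries, and ENSRNOG00000004006 overlapped the uninduced ones.

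At 24 h both compounds left these genes between the uninduced and the induced level. ENSRNOG00000025164 was at 233, 242 and 233 CPM with PAIR1 and at 184, 168 and 175 CPM with KIRA9. Relative to induced vehicle its log2 change was -0.54 ± 0.040 for PAIR1 (adjusted p = 7.4e-11) and -0.96 ± 0.040 for KIRA9 (adjusted p = 1.1e-15). Relative to uninduced cells it was 1.84 ± 0.042 (adjusted p = 2.0e-19) and 1.41 ± 0.041 (adjusted p = 1.3e-16). The groups did not overlap in any of these comparisons. ENSRNOG00000004006 was at 82.1, 84.2 and 83.5 CPM with PAIR1 and at 62.5, 69.5 and 63.7 CPM with KIRA9. Its log2 change from induced vehicle was -0.39 ± 0.051 for PAIR1 (adjusted p = 6.3e-07) and -0.75 ± 0.051 for KIRA9 (adjusted p = 1.2e-11), and that from uninduced cells 1.42 ± 0.053 (adjusted p = 1.3e-15) and 1.06 ± 0.053 (adjusted p = 7.1e-13). With the times of the induced libraries taken from the time characteristic, the differences from induced vehicle turned, to 1.02 with PAIR1 and 0.59 with KIRA9 for ENSRNOG00000025164 and to 0.81 and 0.45 for ENSRNOG00000004006. The order of the group means was the same in both genes: induced, PAIR1 and KIRA9 at 24 h, then induced and PAIR1 at 4 h, uninduced at 4 h, KIRA9 at 4 h and uninduced at 24 h. In ENSRNOG00000025164 no neighbours in this order overlapped, and in ENSRNOG00000004006 PAIR1 and uninduced cells at 4 h did, as did KIRA9 at 4 h and uninduced cells at 24 h. The highest group mean was 5.20-fold the lowest in ENSRNOG00000025164 and 3.50-fold in ENSRNOG00000004006.

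ENSRNOG00000019434 behaved otherwise at 4 h. Its levels were 7.10, 8.63 and 7.49 CPM with PAIR1 and 7.56, 8.50 and 8.72 CPM with KIRA9, which overlapped the induced vehicle libraries and lay above all uninduced ones. At 24 h it was at 7.13, 7.43 and 7.70 CPM with PAIR1 and at 6.76, 6.44 and 6.06 CPM with KIRA9, all below the induced vehicle libraries and above the uninduced ones. The fall from induced vehicle was called for both, with a log2 change of -0.62 ± 0.11 for PAIR1 (adjusted p = 2.7e-05) and -0.84 ± 0.11 for KIRA9 (adjusted p = 4.0e-07). With the times of the induced libraries taken from the time characteristic, the difference for PAIR1 was -0.12 and that for KIRA9 was -0.34. Against uninduced cells the KIRA9 level was not called, at a log2 difference of 0.14 with a 95% interval from -0.086 to 0.37 (adjusted p = 0.45). The PAIR1 level was called, at 0.35 ± 0.11 (adjusted p = 0.017). That call was lost without PAIR1 replicate 3 (adjusted p = 0.071), without uninduced replicate 2 (adjusted p = 0.066), without the 6 libraries that stood apart (adjusted p = 0.10), without the filter on low counts (adjusted p = 0.062), with only the compared groups fitted (adjusted p = 0.083) and with DESeq2 (adjusted p = 0.069). Its group means spanned 2.02-fold, from 5.66 ± 0.90 CPM (SD, n = 3) in uninduced cells at 4 h to 11.4 ± 0.26 CPM in induced cells at 24 h. In the order of its means induced vehicle at 24 h stood alone at the top, the next 4 groups (KIRA9, induced and PAIR1 at 4 h and PAIR1 at 24 h) each overlapped the neighbour, and the uninduced groups overlapped at the bottom, below KIRA9 at 24 h.

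**Figure D2:**
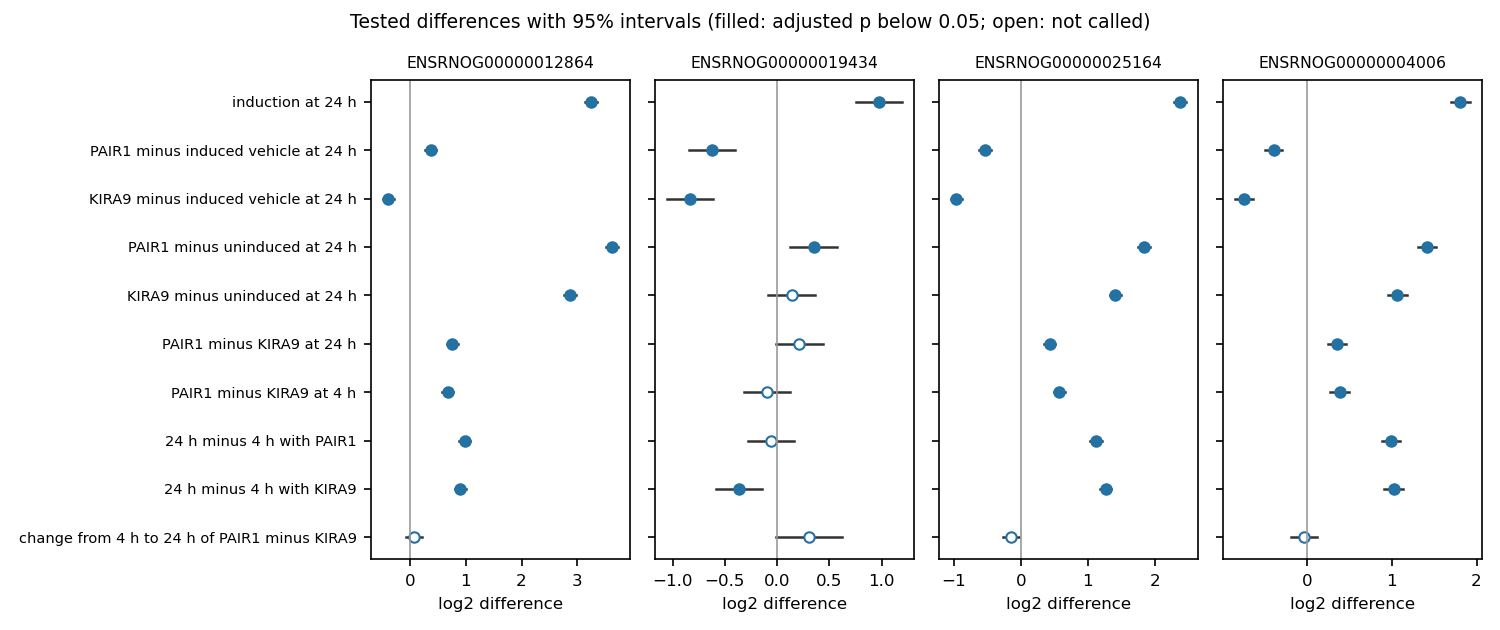
Log2 difference with its 95% interval (horizontal) of each of the 4 genes in the 10 tested comparisons (vertical), with filled points at an adjusted p below 0.05 and open points otherwise. PAIR1 minus induced vehicle at 24 h lies at 0.37 for ENSRNOG00000012864 and below 0 for the other 3, and PAIR1 minus KIRA9 is open only for ENSRNOG00000019434 at each time.

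Over the 4 genes, 1 was higher and 3 were lower with PAIR1 than with induced vehicle at 24 h, where 30.0% of all IDs were called higher and 24.9% lower. All 4 were lower with KIRA9, where 30.6% of all IDs were. Most IDs raised by induction at 24 h went the same way: of 4102, 2875 were called lower with PAIR1 and 3302 with KIRA9. The median log2 change of the 4 was -0.47 with PAIR1 and -0.79 with KIRA9, and that of all IDs was -0.0035 and -0.017. Against uninduced cells, 4 were higher with PAIR1 and 3 with KIRA9, beside 13.7% and 12.6% of all IDs. These contrasts share the induced or the uninduced libraries with each other and with the induction contrast, so their counts are not independent of each other.

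How much of the induction difference each compound left was expressed as the place of each library on the log2 scale, with the uninduced mean at 0% and the induced mean at 100%. At 24 h the 3 PAIR1 libraries stood at 110, 114 and 111% for ENSRNOG00000012864 and the 3 KIRA9 libraries at 89.4, 89.3 and 85.9%. For ENSRNOG00000025164 they stood at 76.7, 78.9 and 76.5% with PAIR1 and at 62.2, 56.8 and 59.1% with KIRA9. ENSRNOG00000004006 was close to it, at 77.1, 79.1 and 78.4% with PAIR1 and at 55.4, 63.8 and 56.9% with KIRA9. ENSRNOG00000019434 kept least, at 30.1, 36.2 and 41.4% with PAIR1 and at 22.4, 15.1 and 6.19% with KIRA9. In all 4 genes every PAIR1 library lay above every KIRA9 library, but for ENSRNOG00000019434 the difference between the compounds was not called (adjusted p = 0.21). The share of all IDs whose PAIR1 and KIRA9 libraries did not overlap was not counted, so nothing is read from the 4. Over the 4102 IDs raised by induction at 24 h, the median of the same measure from the group changes was 30.9% with PAIR1 and 11.3% with KIRA9, so that ENSRNOG00000019434, at 36.1% and 14.4%, lay near the median and the other 3 genes lay above it; no test was made of these places, which share the induced and uninduced libraries.

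**Figure D3:**
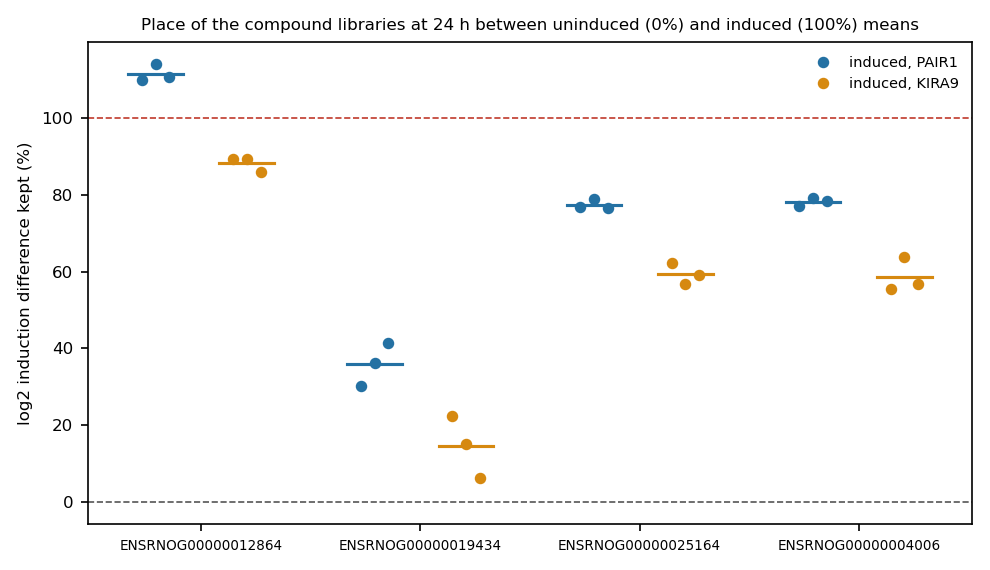
Percent of the log2 induction difference kept at 24 h (vertical) for each of the 4 genes (horizontal), with a point for each PAIR1 or KIRA9 library and a bar at the mean of 3; dashed lines mark the uninduced mean (0%) and the induced mean (100%). PAIR1 libraries of ENSRNOG00000012864 lie between 110 and 114%, and KIRA9 libraries of ENSRNOG00000019434 between 6.19 and 22.4%.

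Setting the compounds against each other asked whether the genes ended at different levels. This comparison shares no library with the 4 h contrast that made the choice. The choice was made with earlier results of these data known, so independence from it is not certain. It made 8 comparisons, 4 genes at 2 times, with p-values adjusted over all IDs at each time. Of the 4 genes, 3 were higher with PAIR1 at 4 h, beside 0.821% of all IDs, and the same 3 were higher at 24 h, beside 6.0%. ENSRNOG00000012864 was 0.68 ± 0.048 higher on the log2 scale at 4 h (adjusted p = 1.5e-09) and 0.76 ± 0.047 higher at 24 h (adjusted p = 3.4e-11). ENSRNOG00000025164 was higher by 0.57 ± 0.041 at 4 h (adjusted p = 2.2e-09) and 0.43 ± 0.040 at 24 h (adjusted p = 2.7e-08), and ENSRNOG00000004006 by 0.38 ± 0.054 at 4 h (adjusted p = 8.3e-05) and 0.35 ± 0.051 at 24 h (adjusted p = 2.1e-05). In each of these the PAIR1 and KIRA9 libraries did not overlap. ENSRNOG00000019434 was not called: its difference was -0.095 with a 95% interval from -0.32 to 0.13 at 4 h (adjusted p = 0.80) and 0.21 with an interval from -0.014 to 0.44 at 24 h (adjusted p = 0.21). Doses are not given, so treatments are compared as applied.

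The size of this difference was then compared between the times. In edgeR 0 of the 4 genes were called, with 1 at an unadjusted p below 0.05, and in DESeq2 0 were called; 8.61% of all IDs were called in either direction by edgeR. The change of PAIR1 minus KIRA9 from 4 h to 24 h had a 95% interval from -0.065 to 0.21 for ENSRNOG00000012864, from -0.26 to -0.026 for ENSRNOG00000025164, from -0.19 to 0.12 for ENSRNOG00000004006 and from -0.0096 to 0.62 for ENSRNOG00000019434. The respective adjusted p-values were 0.61, 0.14, 0.88 and 0.27.

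Within the compound-treated cells, 3 of the 4 genes rose from 4 h to 24 h with PAIR1, beside 16.9% of all IDs, and the same 3 rose with KIRA9, beside 15.7%. ENSRNOG00000025164 rose most, by 1.12 ± 0.041 on the log2 scale with PAIR1 (adjusted p = 1.1e-15) and 1.27 ± 0.041 with KIRA9 (adjusted p = 5.5e-16). ENSRNOG00000004006 rose by 0.99 ± 0.052 (adjusted p = 8.1e-13) and 1.02 ± 0.054 (adjusted p = 2.4e-12), and ENSRNOG00000012864 by 0.98 ± 0.048 (adjusted p = 1.7e-13) and 0.91 ± 0.048 (adjusted p = 2.5e-12). ENSRNOG00000019434 did not follow them. With PAIR1 its change was -0.058 with a 95% interval from -0.28 to 0.17 (adjusted p = 0.75). With KIRA9 it fell, as 13.9% of all IDs did, with a log2 change of -0.37 ± 0.11 (adjusted p = 0.013), a call that was lost without KIRA9 replicate 3 at 24 h (adjusted p = 0.063), without KIRA9 replicate 3 at 4 h (adjusted p = 0.061) and with DESeq2 (adjusted p = 0.051).

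Likeness between genes was described by Pearson's r of log2 CPM over the 24 libraries, which share groups, times and scaling. ENSRNOG00000025164 and ENSRNOG00000004006 had an r of 0.993. Among 10709 other IDs with a mean of at least 5 CPM, each was the most like the other, and the next ID reached 0.979 for ENSRNOG00000025164 and 0.978 for ENSRNOG00000004006. Over the 18 libraries outside the contrast that made the choice, r was 0.994 and they again ranked 1 for each other. Within groups, after the group means were subtracted, r was -0.026, so the likeness lies in the group means. The ratio of their counts, which no scaling touches, was still not constant: at 24 h it was 2.11 ± 0.15 (SD, n = 3) without and 3.13 ± 0.17 with induction, 2.83 ± 0.045 with PAIR1 and 2.70 ± 0.26 with KIRA9. At 4 h it was 2.39 ± 0.11 without and 2.44 ± 0.17 with induction, 2.59 ± 0.0054 with PAIR1 and 2.27 ± 0.034 with KIRA9. Some of these SDs, such as 0.0054 and 0.034, are smaller than counting error alone would give, and they are not read as precision. For ENSRNOG00000004006 that error was 4.69% at its lowest count, 454, in a KIRA9 library of 4 h.

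The other pairs had a lower Pearson's r. ENSRNOG00000012864 had an r of 0.760 with ENSRNOG00000025164 and 0.745 with ENSRNOG00000004006, which ranked 55 and 69 among its 10709 IDs. Spearman's rho for these pairs was higher, at 0.920 and 0.892, and that of ENSRNOG00000025164 with ENSRNOG00000004006 was 0.981. ENSRNOG00000019434 had an r of 0.655 with ENSRNOG00000012864, 0.588 with ENSRNOG00000025164 and 0.575 with ENSRNOG00000004006, and these ranked 867, 1421 and 1546 among its IDs. The most similar ID, which is not among the 4, had an r of 0.868 with ENSRNOG00000012864 and another had 0.889 with ENSRNOG00000019434. Over the 18 libraries outside the contrast that made the choice, the highest r was 0.973 and 0.966, again with IDs not among the 4. Over the 24 libraries, at least 0.9 was reached by 120 IDs with ENSRNOG00000025164 and 122 with ENSRNOG00000004006.

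**Figure D4:**
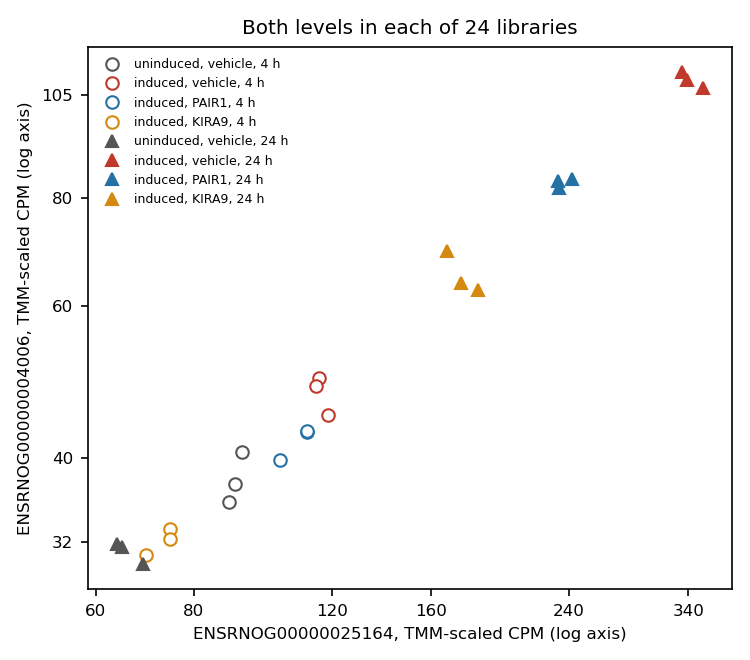
TMM-scaled CPM of ENSRNOG00000025164 (horizontal, log axis) against ENSRNOG00000004006 (vertical, log axis) in each of the 24 libraries, with open circles for 4 h, filled triangles for 24 h and a colour for each treatment. The libraries fall along a line (r = 0.993 on the log2 scale), from uninduced cells at 24 h and KIRA9 at 4 h at the lower end to induced vehicle cells at 24 h at the upper end.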

How the data were processed

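The authors deposited raw read counts per Ensembl gene ID for 24 libraries, with no normalization, per the labels and the values. Per the labels' protocols, libraries were made from poly(A) RNA with NEBNext Ultra II reagents, and HISAT2 and HTSeq were used, per the submitters' processing notes. Versions, genome build, annotation and strand setting are not given in the sources used here. How reads shared by a gene and a close copy, an overlapping gene or an antisense gene were assigned is therefore unknown. Of 26689 IDs, 0 matched the gene or promoter tables used for names and sequences. Gene lists, markers, promoter motifs and the induced gene were therefore not analysed, and no ID beyond the 4 is printed.

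The 4 genes and the lists were chosen with earlier results of these data known. IDs were kept with filterByExpr at a minimum count of 10, which left 13760, the 4 genes among them. Counts were scaled by TMM and fitted in edgeR 4.0.16 (R 4.3.3) with a quasi-likelihood model of 8 group means over all 24 libraries. P-values of a contrast were adjusted (Benjamini-Hochberg) over all 13760 IDs, with a threshold of 0.05 for a call. SE and 95% intervals were computed from the statistic of the same test. For ENSRNOG00000019434, KIRA9 against uninduced cells at 24 h and the change with PAIR1 had larger p-values than their intervals imply. These intervals may be too narrow. Contrasts with uninduced or induced libraries of 4 h were given as values. The procedure was tested on simulated data. log2 CPM used a prior count of 2. DESeq2 1.42.0 and the other alternatives are given at the end. Named genes were the 4, by rule, and the rule for naming the most similar IDs could not be applied without symbols. No replicate pair agreed within sampling noise (chi-square per degree of freedom 3.63 to 19.5), and nothing says whether replicates were separate cultures, so p-values measure the spread between these samples, which may be technical.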

Additional observations from a re-analysis of the deposited data

Results flagged for a closer look

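In 10 cases every library of a treatment moved one way in a comparison, and every library of the same comparison at the other time, or in the other treatment, moved the opposite way. None of these differences was tested, because each uses libraries of the 4 h contrast that chose the genes. Differences are of mean log2 CPM.

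ENSRNOG00000012864 was below induced vehicle with PAIR1 at 4 h (-0.28) and above it at 24 h (0.37), a difference between the times of 0.65. Against uninduced cells, KIRA9 was lower at 4 h and higher at 24 h for ENSRNOG00000025164 (-0.31 and 1.41, a difference of 1.72) and for ENSRNOG00000004006 (-0.24 and 1.06, a difference of 1.29).

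From 4 h to 24 h, ENSRNOG00000025164 went down in uninduced cells (-0.46) and up in the others, so that the change was 2.01 larger in induced vehicle, 1.58 larger with PAIR1 and 1.72 larger with KIRA9. ENSRNOG00000004006 also went down in uninduced cells (-0.28), and its change was 1.47, 1.26 and 1.29 larger in the same groups. ENSRNOG00000019434 went up in induced vehicle cells (0.49) and down with KIRA9 (-0.36), a difference of -0.85. The 3 cases with the change of induced vehicle cells rest on the titles' times: with the time characteristic that change was -1.56 for ENSRNOG00000025164, -1.20 for ENSRNOG00000004006 and -0.50 for ENSRNOG00000019434.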

How the results depend on the processing

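Of 516 recomputed values of the 40 tested log2 changes, 499 kept their direction and their side of the threshold, 11 lost a call and 6 changed sign, of which 2 were small changes that had not been called: ENSRNOG00000019434 from 4 h to 24 h with PAIR1 was 0.025 without PAIR1 replicate 2 at 4 h (from -0.12 over the libraries left out), and ENSRNOG00000004006 in the change of PAIR1 minus KIRA9 with time was 0.015 without KIRA9 replicate 2 at 24 h (from -0.067). The other 4 came from the time characteristic in place of the title: PAIR1 minus induced vehicle at 24 h was 1.02 for ENSRNOG00000025164 and 0.81 for ENSRNOG00000004006, and KIRA9 minus induced vehicle 0.59 and 0.45. Under it the induced libraries used for 24 h are those that chose the genes, so its calls, which the 516 include, are not read as tests. Its values are among the lost calls for KIRA9 minus induced vehicle in ENSRNOG00000012864 and PAIR1 minus induced vehicle in ENSRNOG00000019434. The IDs called at 24 h under it numbered 3787 (induction), 4646 (PAIR1 minus induced vehicle) and 4218 (KIRA9 minus induced vehicle), instead of 8503, 7556 and 8660. Among values without a test it turned the change from 4 h to 24 h in induced cells to -0.33, -0.50, -1.56 and -1.20 and the growth of the induction difference to -0.20, -0.54, -1.10 and -0.92 for ENSRNOG00000012864, ENSRNOG00000019434, ENSRNOG00000025164 and ENSRNOG00000004006, and KIRA9 minus induced vehicle at 4 h to -0.47 for ENSRNOG00000019434. The last value was also -0.0073 without induced replicate 1 and -0.0097 without KIRA9 replicate 3 (up to 0.088), and the change of this gene in uninduced cells was -0.021 without the 6 libraries that stood apart and -0.050 without uninduced replicate 2 at 4 h (up to 0.17). KIRA9 against uninduced cells at 24 h called 2070 IDs with only the compared groups fitted, instead of 3221. PAIR1 against KIRA9 at 4 h called 283 IDs, and 187 to 227 with a library left out, the lowest without PAIR1 replicate 1. The count of the 4 genes called stayed within 1 of its value in every comparison and alternative run. This count takes no account of direction: under the time characteristic it includes ENSRNOG00000025164 and ENSRNOG00000004006 with the opposite sign against induced vehicle.

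Replicate numbers are shared between groups, but same-numbered libraries did not deviate together (median r of deviations 0.0083, from -0.30 to 0.30), and 9 of 24 libraries correlated best with their own number. With the replicate block all 40 tested log2 changes kept direction and call, with, for example, 8522 IDs called for induction at 24 h and 283 for PAIR1 against KIRA9 at 4 h. CPM of total counts moved 5 of the 32 group levels by more than their SD, among them all 4 in induced cells at 24 h, to 1065, 12.4, 370 and 118 CPM for ENSRNOG00000012864, ENSRNOG00000019434, ENSRNOG00000025164 and ENSRNOG00000004006. Without the 6 libraries that stood apart, ENSRNOG00000025164 changed by 1.61 from 4 h to 24 h in induced cells, and its induction difference grew by 2.06. Depth limits ENSRNOG00000019434 most.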
